A study of Rattus norvegicus with 16 samples.

Results

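Transcripts of 8 conjugating and detoxifying enzymes, of 20789 genes tested, were followed in cultured rat hepatocytes treated with SQ1 or pravastatin. The 8 genes are Gsta2, Gsta5, Gstp1, Ugt2b1, Ugdh, Sult1c2a, Akr7a3 and Ephx1. They were taken by symbol after earlier results from these arrays had shown that several of them rose with SQ1 and fell with pravastatin. They were thus selected on the log2 ratios of treated over untreated cells, and those ratios are given as a description, with no test. All 8 passed the filter on dim probes, and their 9 probes were well above background in 32 of 32 channel measurements.

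Primary hepatocytes of male Sprague Dawley rats in Williams Medium E received 100 µM SQ1, 30 µM pravastatin or no drug for 48 hours, beginning 48 hours after plating. RNA of treated and untreated cells was hybridised together on 2-colour Agilent arrays, with 8 arrays per drug and 4 in each dye orientation, which the series' design text calls biological replicates. The SQ1 dose stands as the labels give it and no other source here bears on it. SQ1 is a code name in the labels and is known from hepatocyte work as squalestatin 1, an inhibitor of squalene synthase, and pravastatin is a statin that blocks sterol synthesis upstream of that enzyme. The doses differ, so values of both drugs are set side by side. The number in the scanner file names for the untreated culture is the same on same-numbered arrays of both drugs, so the comparisons may share untreated RNA. Since all arrays of a slide are of 1 drug, drug and slide cannot be told apart. Drug names follow the scanner files. The deposited value table holds, under each array's name, values that correlated at 1.00 across probes with the array of that number for the other drug and at 0.579 to 0.641 with the named array, so by that table every SQ1 value below would belong to pravastatin and every pravastatin value to SQ1.

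The median spot of an array was 588 to 663 units bright in A555 (background 306 to 315) and 790 to 1076 in A647 (background 339 to 348), and no spot was saturated. Across probes, pairs of SQ1 arrays had correlations of 0.745 to 0.954 and pairs of pravastatin arrays of 0.564 to 0.907. All 10 hepatocyte markers examined, among them Alb and Ttr, were well above background in every untreated channel. Responses were wide: 63.8% of all genes tested were called with SQ1 and 38.9% with pravastatin, at a Benjamini-Hochberg adjusted p under 0.05 in limma. Of the 20789 genes tested 11940 had a symbol. Each of the rest is a probe without one, and shares of all genes tested include these probes.

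Lipid-soluble drugs, steroids and bile pigments are made excretable in the liver in stages, and the enzymes described here act late in that sequence. Glutathione S-transferases join glutathione to reactive electrophiles, UDP-glucuronosyltransferases attach glucuronic acid, and sulfotransferases attach sulfate, after which carriers export the conjugates into bile or blood. Epoxide hydrolases and aldo-keto reductases do not conjugate: they add water to epoxides or reduce carbonyl groups, which also removes reactive products. Several of these genes respond to the receptors CAR, PXR and AHR and to the electrophile sensor NRF2, which binds antioxidant response elements.

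The promoters of all 8 genes were found by symbol in a table from RefSeq (build GRCr8; the arrays were designed on rn4), and the 250 bases before each start were searched, in 9 windows because Ephx1 has 2 starts. The windows of 5 genes are shown because they belong to the members with the largest response, the closest pair and the clearest motif matches. Capitals mark matches on either strand to TGACNNNGC, the core of the antioxidant response element, TGANTCA, the AP-1 site, GCGTG, the core of AHR sites, or AGTTCA, a nuclear receptor half-site. The Ugt2b1 window lies at chr14:21378632-21378881 on the plus strand, Gsta5 at chr8:87988104-87988353 on the plus strand, Sult1c2a at chr9:7103203-7103452 on the minus strand, Gstp1 at chr1:210769706-210769955 on the minus strand, and Ephx1 at chr13:95263118-95263367 on the minus strand, each printed 5′ to 3′ toward the gene.
Ugt2b1: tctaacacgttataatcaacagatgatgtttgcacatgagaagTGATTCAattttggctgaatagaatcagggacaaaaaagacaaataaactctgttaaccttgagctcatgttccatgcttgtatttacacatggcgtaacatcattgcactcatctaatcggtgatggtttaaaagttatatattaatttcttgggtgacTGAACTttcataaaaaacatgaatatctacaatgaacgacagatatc
Gsta5: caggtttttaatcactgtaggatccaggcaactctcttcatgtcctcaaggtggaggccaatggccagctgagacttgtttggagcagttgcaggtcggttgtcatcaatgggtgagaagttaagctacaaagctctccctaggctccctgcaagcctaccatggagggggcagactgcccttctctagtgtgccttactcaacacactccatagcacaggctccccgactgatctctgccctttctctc
Sult1c2a: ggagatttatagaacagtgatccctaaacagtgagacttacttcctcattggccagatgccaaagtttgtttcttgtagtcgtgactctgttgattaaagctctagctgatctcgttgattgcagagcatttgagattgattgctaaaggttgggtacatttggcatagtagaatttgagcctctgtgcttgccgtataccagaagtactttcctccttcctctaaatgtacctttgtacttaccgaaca
Gstp1: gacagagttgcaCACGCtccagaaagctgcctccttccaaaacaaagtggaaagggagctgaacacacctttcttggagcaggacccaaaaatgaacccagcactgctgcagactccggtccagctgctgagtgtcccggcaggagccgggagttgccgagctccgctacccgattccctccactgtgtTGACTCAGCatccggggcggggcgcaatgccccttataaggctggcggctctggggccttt
Ephx1: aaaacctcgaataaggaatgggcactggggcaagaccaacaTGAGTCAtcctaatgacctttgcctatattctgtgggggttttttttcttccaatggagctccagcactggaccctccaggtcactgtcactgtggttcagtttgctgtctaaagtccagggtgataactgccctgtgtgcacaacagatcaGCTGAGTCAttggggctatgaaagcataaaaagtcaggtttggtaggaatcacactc

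The antioxidant response element core stood in 3 of 9 windows, those of Gstp1, Ugdh and 1 of the Ephx1 starts, and in 10.1% of 33465 promoter windows of the same length. In Gstp1 the match was TGACTCAGC, 61 bases before the start, and it holds an AP-1 match within it. The Ephx1 match, GCTGAGTCA on the opposite strand 57 bases before the start, likewise overlaps an AP-1 match, and a second AP-1 match lay 209 bases before that start. Ugt2b1 held TGATTCA at 207 bases and TGAACT, the half-site on the opposite strand, at 47 bases before its start. AP-1 sites stood in 3 of 9 windows, against 6.34% of all windows. The AHR core was matched in 4 of 9 windows, those of Gsta2, Gstp1, Ugdh, where it overlaps the antioxidant core, and Akr7a3, against 25.9% of all windows. The half-site was matched in Gsta2 and Ugt2b1, 2 of 9 windows, against 12.2%. The windows of Gsta5 and Sult1c2a held none of these letters. A match describes letters in the window and does not show that a factor binds there.

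Of the 8 genes, 7 had a mean above 0 with SQ1 and all 8 a mean below 0 with pravastatin, and Akr7a3 was below 0 with both drugs. Gsta2, Gsta5, Ugt2b1, Sult1c2a and Ephx1, 5 of the 8, were higher than untreated on 8 of 8 SQ1 arrays and lower on 8 of 8 pravastatin arrays, as were 0.774% of all genes tested, a pattern for which the genes were chosen. Their SQ1 means spanned 0.51 for Gsta2 to 2.64 for Ugt2b1, while the pravastatin means of the 8 genes lay closer together, from −0.96 for Akr7a3 to −0.31 for Ugdh. The median over all genes was 0.01 with SQ1 and 0.00 with pravastatin. RNA came from whole cultures, so fewer cells of a type and less RNA per cell cannot be told apart.

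**Figure D1:**
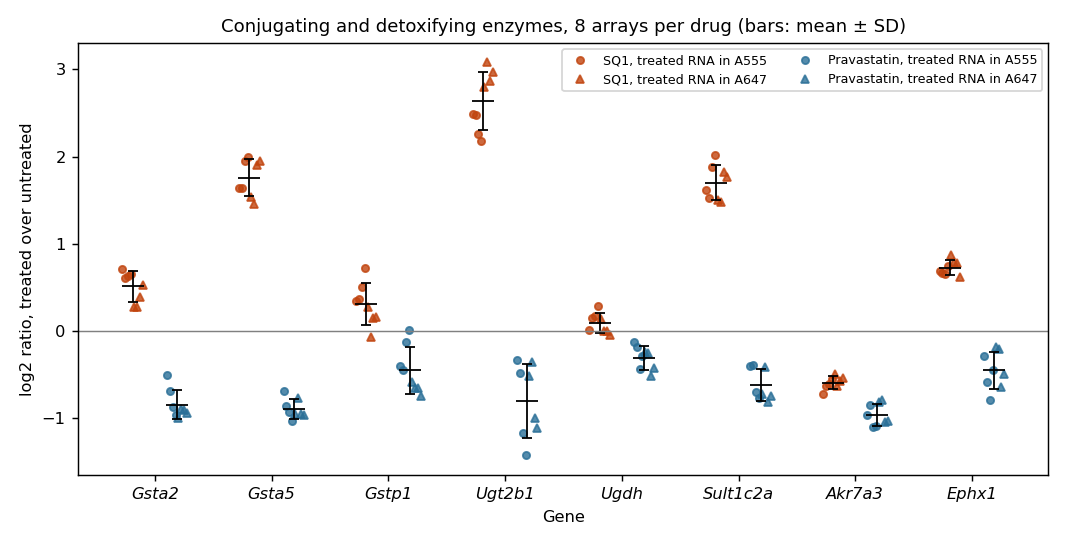
Log2 ratio of treated over untreated cells on each of 8 arrays per drug for the 8 genes, SQ1 in orange and pravastatin in blue; circles and triangles give the dye of the treated RNA, and bars the mean ± SD. Ugt2b1, Gsta5 and Sult1c2a stand highest with SQ1, at means of 2.64, 1.76 and 1.70, and Akr7a3 alone has all 16 points below 0.

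Ugt2b1 encodes a rat UDP-glucuronosyltransferase that conjugates steroids and drugs. Its normalised intensity was 206421 to 378988 in SQ1-treated cells (median 258602), against 26422 to 68030 in untreated cells on the same arrays (median 45686). On the pravastatin arrays it was 30123 to 61688 in treated cells (median 45251), against 68759 to 86635 in untreated cells (median 79873). Neither pair of ranges overlapped. The log2 ratio with SQ1 had a lowest value of 2.18, a median of 2.64 and a highest of 3.08, a mean of 2.64 ± 0.11 (SE of the model, SD 0.33, n = 8), or 6.23-fold. With pravastatin the lowest ratio was −1.42, the median −0.76 and the highest −0.33, a mean of −0.80 ± 0.11 (SD 0.42, n = 8), or 1.74-fold lower. Untreated intensities also differed between the arrays of the drugs without overlap, although same-numbered arrays may share that RNA, so intensities were read within an array. The SQ1 ratio depended on the dye orientation, at 2.93 ± 0.13 with the treated RNA in A647 and 2.35 ± 0.16 with it in A555 (SD, n = 4 each), and both orientations were far above 0.

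Ugdh, the dehydrogenase that makes UDP-glucuronic acid, the sugar donor for that reaction, moved least of the 8 genes in both drugs. Its intensity was 21886 to 28425 in SQ1-treated cells, against 20954 to 25954 in untreated cells, and the ranges overlapped. The log2 ratio with SQ1 lay between −0.05 and 0.29 around a median of 0.07, with a mean of 0.09 ± 0.04 (SD 0.12, n = 8), and 5 of 8 arrays were above 0. With median centring in place of loess the mean was 0.22. Pravastatin-treated cells had 17796 to 19451, against 20604 to 26136 in untreated cells, with no overlap. That ratio lay between −0.51 and −0.13, a mean of −0.31 ± 0.04 (SD 0.13, n = 8), or 1.24-fold lower. The SQ1 ratio of Ugt2b1 lay above that of Ugdh, the enzyme that supplies its donor, on all 8 SQ1 arrays.

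Gsta5 and Gsta2 are alpha-class glutathione transferases, and rat Gsta5 is known for conjugating the epoxide of aflatoxin. Gsta5 intensity was 49057 to 63692 in SQ1-treated cells (median 59637), against 15181 to 19947 in untreated cells (median 16935). In pravastatin-treated cells it was 7321 to 11777 (median 8583), against 14935 to 19904 in untreated cells (median 16545). For both drugs the treated and untreated ranges were fully apart. The SQ1 ratio ranged over 1.46 to 2.0 with a median of 1.77 and a mean of 1.76 ± 0.06 (SD 0.21, n = 8), or 3.38-fold. The pravastatin ratio ranged over −1.03 to −0.69 with a median of −0.94 and a mean of −0.89 ± 0.06 (SD 0.11, n = 8), or 1.86-fold lower.

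Gsta2 responded less to SQ1 and about as much to pravastatin. Its intensity was 27515 to 41948 in SQ1-treated cells (median 32389), against 19236 to 31849 in untreated cells (median 23250). Pravastatin-treated cells had 9987 to 17116 (median 13844), against 19425 to 32952 (median 23168) in untreated cells. The SQ1 ranges overlapped between arrays, yet the treated channel was the higher one on each of 8 arrays. Ratios with SQ1 lay between 0.27 and 0.71 around a median of 0.57, a mean of 0.51 ± 0.04 (SD 0.18, n = 8), or 1.42-fold. Ratios with pravastatin lay between −0.99 and −0.50 around a median of −0.90, a mean of −0.85 ± 0.04 (SD 0.17, n = 8). The SQ1 mean was 0.65 ± 0.04 with the treated RNA in A555 and 0.37 ± 0.12 with it in A647 (SD, n = 4 each).

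Gstp1, the pi-class transferase, is scarce in adult rat hepatocytes, abundant in bile duct cells and used as a marker of preneoplastic foci in rat liver. Its intensity was 19200 to 32018 in SQ1-treated cells, against 17866 to 24467 in untreated cells, and 13274 to 18255 in pravastatin-treated cells, against 18120 to 23989 in untreated cells. Both pairs of ranges overlapped. The SQ1 ratio lay between −0.07 and 0.72, with 7 of 8 arrays above 0 and a mean of 0.31 ± 0.05 (SD 0.24, n = 8). The pravastatin ratio lay between −0.74 and 0.01, with 7 of 8 arrays below 0 and a mean of −0.45 ± 0.05 (SD 0.27, n = 8). The ratio of Gstp1 leaned on the dye: it was 0.48 with the treated RNA in A555 and 0.13 with it in A647 for SQ1, and −0.24 and −0.66 for pravastatin (n = 4 each). Of 6 cholangiocyte markers measured, 1 rose and 3 fell with SQ1, and 3 rose and 1 fell with pravastatin. Over all genes tested 32.6% rose and 31.2% fell with SQ1, and 19.3% rose and 19.6% fell with pravastatin. Their summed intensity was 29260 to 34823 in SQ1-treated cells against 19860 to 24315 in untreated cells, and 23383 to 32715 in pravastatin-treated cells against 18971 to 25092 in untreated cells. That sum was above the untreated range with SQ1 and overlapped it with pravastatin. Nearly all of it was Epcam, an epithelial adhesion protein, whose untreated intensity was 17747 to 24016. Epcam rose by 0.57 ± 0.03 with SQ1, where it was the 1 marker that rose, and by 0.37 ± 0.03 with pravastatin. The other 5 markers were at 90.1 to 402 in untreated cells, among them the bile duct keratins Krt7 and Krt19, with Krt7 at −0.15 ± 0.04 and Krt19 at 0.04 ± 0.02 with SQ1. The part of these markers in the Gstp1 values was not tested.

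Sult1c2a, a cytosolic sulfotransferase of the 1C family, followed Gsta5 closely. Intensity was 5491 to 9390 in SQ1-treated cells, against 1898 to 2587 in untreated cells, and 1366 to 1662 in pravastatin-treated cells, against 1997 to 2703 in untreated cells. The treated and untreated ranges did not overlap for either drug. With SQ1 the ratio ranged over 1.47 to 2.01, a mean of 1.70 ± 0.06 (SD 0.20, n = 8), or 3.25-fold. With pravastatin it ranged over −0.81 to −0.39, a mean of −0.62 ± 0.06 (SD 0.18, n = 8), or 1.54-fold lower. A second probe of the gene gave 1.82 with SQ1 (SD 0.24) and −0.43 with pravastatin (SD 0.11), and so both probes had the same directions. Whether either probe also binds the paralog Sult1c2 was not tested.

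Ephx1, the microsomal epoxide hydrolase, had the tightest SQ1 ratios among the genes that stood above 0. Its intensity was 63112 to 79230 in SQ1-treated cells, against 41088 to 49775 in untreated cells. Pravastatin-treated cells had 23574 to 35480, against 37035 to 42435 in untreated cells. Neither pair of ranges overlapped. The SQ1 ratio lay between 0.62 and 0.87, a mean of 0.73 ± 0.05 (SD 0.09, n = 8), or 1.65-fold, and the pravastatin ratio between −0.79 and −0.19, a mean of −0.45 ± 0.05 (SD 0.22, n = 8), or 1.37-fold lower.

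Akr7a3, the reductase that removes the dialdehyde of aflatoxin in rat liver, ran against the other genes with SQ1. Its intensity was 40794 to 56516 in SQ1-treated cells (median 48644), against 59920 to 82262 in untreated cells (median 73874). In pravastatin-treated cells it was 34468 to 42948 (median 37962), against 64766 to 82494 in untreated cells (median 74207). Treated cells were below untreated cells on all 16 arrays, with no overlap of the ranges for either drug. The SQ1 ratio lay between −0.72 and −0.49, a mean of −0.59 ± 0.03 (SD 0.07, n = 8), or 1.51-fold lower. The pravastatin ratio lay between −1.10 and −0.79, a mean of −0.96 ± 0.03 (SD 0.13, n = 8), or 1.95-fold lower. The 8 genes thus held 2 enzymes of aflatoxin detoxification, Gsta5 and Akr7a3, whose ratios had opposite signs with SQ1 and the same sign with pravastatin.

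**Figure D2:**
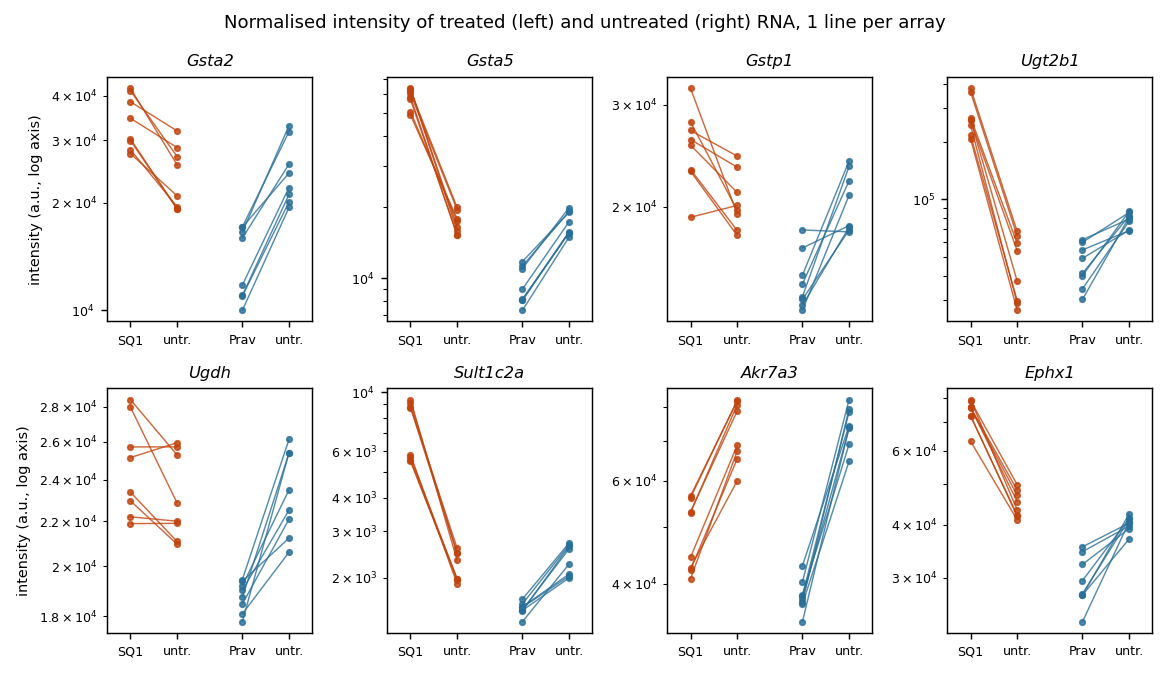
Normalised intensity (arbitrary units, log axis, a scale for each gene) of treated and untreated RNA, with 1 line per array, SQ1 arrays in orange and pravastatin arrays in blue. Akr7a3 lies lower in treated cells on every array, and untreated Ugt2b1 is 26422 to 68030 on SQ1 arrays and 68759 to 86635 on pravastatin arrays.

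The 16 ratios of each pair of genes were also compared by their root mean square difference, in log2 units over all arrays. Gsta5 and Sult1c2a were the closest pair, at 0.213, which is near the SD of either gene between SQ1 arrays. Gstp1 and Ugdh followed at 0.281, and Ugt2b1 and Akr7a3 were farthest apart at 2.31. Neighbours outside the 8 were sought only among the 11940 genes with a symbol. These are the ratios on which the 8 genes were chosen, so neighbours describe a like size and direction only. Shared regulation was not tested. The nearest gene was a cytochrome P450 gene for Ugt2b1, Gsta5 and Sult1c2a. Nearest to Ugt2b1 were the cytochrome P450 genes Cyp2b2 (0.453) and Cyp2b21 (0.655), and Gpnmb (0.657). Cyp2c6v1, another cytochrome P450 gene, and Hmox1, heme oxygenase, were nearest to Gsta5, at 0.282 and 0.489, and to Sult1c2a, at 0.260 and 0.348. The third neighbour was Cyp3a23-3a1 (0.540) for Gsta5 and Defb1 (0.438) for Sult1c2a. Gsta2 was nearest to Slc23a1, an ascorbate carrier (0.147), then to Gsta4 (0.285) and Nat8 (0.307). Gstp1 was nearest to Bex1 (0.195), Adh7 (0.254) and Alas1 (0.259), and Ephx1 to Gde1 (0.154), Ech1 (0.178) and Decr2 (0.183). Among the 3 genes nearest to Ugdh were C20h6orf89 (0.106) and Slc7a7 (0.111). The neighbours of Akr7a3 were C1qc (0.116), the glutathione transferase Gsta3 (0.139) and C1qa (0.149). C1qc and C1qa are complement genes of macrophages.

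Macrophage markers moved in the direction of Akr7a3. All 15 on the list fell with both drugs, with a median of −0.54 with SQ1 and −0.79 with pravastatin. Of all genes tested, 31.2% fell with SQ1 and 19.6% with pravastatin. Their summed intensity was 46656 to 68923 in SQ1-treated cells, against 63097 to 114160 in untreated cells, and 44814 to 52230 in pravastatin-treated cells, against 69510 to 101022 in untreated cells. Hepatocyte markers were called lower as well, 10 of 10 with SQ1 (median −0.59), while with pravastatin 7 were called lower and 2 higher (median −0.26). Not all had 1 sign on every array: with SQ1 Alb and Tf were below 0 on 6 of 8 arrays and Ttr on 4 of 8. With pravastatin Alb and Tf, called lower, and Ttr, called higher, were each below 0 on 4 of 8 arrays. The SD of Ttr between arrays was 0.66 with SQ1 and 0.69 with pravastatin, against a model SE of 0.04. For Tf it was 0.66 and 0.69 (SE 0.06), and for Alb 0.50 and 0.47 (SE 0.07). Their summed intensity was 750763 to 1222840 in SQ1-treated cells, against 1197850 to 1724010 in untreated cells, and 1070670 to 1453630 in pravastatin-treated cells, against 988012 to 1615710 in untreated cells. Stellate cell and fibroblast markers fell 9 of 9 with SQ1 (median −0.60) and 3 of 9 with pravastatin, where none rose (median −0.07). Their summed intensity was 18820 to 27043 in SQ1-treated cells, against 34902 to 38092 in untreated cells, with no overlap, and 29559 to 35948 in pravastatin-treated cells, against 34396 to 38907 in untreated cells. Of 4 endothelial markers, 3 fell with SQ1 (median −0.28) and 1 with pravastatin (median −0.05). Their sum was 994 to 1462 in SQ1-treated cells, against 1394 to 2335 in untreated cells, and 1277 to 2806 in pravastatin-treated cells, against 1327 to 2412 in untreated cells. The part of these markers in the values of the 8 genes was not tested.

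Scan day did not enter the choice of the genes, but differences between days are computed from the same log2 ratios on which they were chosen. Counts of the 8 genes beside the share of all genes are thus a description. The file headers give 2 scan days with 4 arrays of each drug on each day, and scan day cannot be told apart from slide or from the series of untreated cultures in the file names. The 4 arrays of a drug on a day share a slide. The p-values for scan day therefore rest on the spread between arrays of a slide and do not measure that between slides or days. In limma the SQ1 effect differed between days for 2 of the 8 genes, against 14.7% of all genes tested, and both were higher on the second day, as were 6% of all genes. Gsta5 stood at 1.95 ± 0.04 on the second day and 1.57 ± 0.09 on the first, a difference of 0.38 ± 0.05 (adjusted p = 0.000176). Sult1c2a stood at 1.87 ± 0.10 on the second day and 1.53 ± 0.06 on the first, a difference of 0.34 ± 0.06 (adjusted p = 0.00107; means ± SD, n = 4 arrays). The 4 values of the second day lay above the 4 of the first for both genes. The other 6 genes had differences of −0.15 to 0.15 with SQ1, with adjusted p of 0.272 or more.

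For pravastatin the effect differed between days for 4 of the 8 genes, against 4.98% of all genes tested, and each of the 4 was lower on the second day, as were 3.17% of all genes. Ugt2b1 had the largest difference of the 8: −1.18 ± 0.18 on the second day and −0.42 ± 0.09 on the first, or −0.75 ± 0.12 (adjusted p = 0.00207). Sult1c2a was at −0.75 on the second day and −0.48 on the first (adjusted p = 0.0128), and Akr7a3 at −1.07 and −0.86 (adjusted p = 0.0111). Ugdh was at −0.42 on the second day and −0.21 on the first (adjusted p = 0.0443), a call that was lost with the random replicate block (adjusted p = 0.0575), without background subtraction (adjusted p = 0.0517), with the signals as Agilent processed them (adjusted p = 0.0919) and without any 1 of 11 of the 16 arrays (adjusted p up to 0.153). Ephx1, at −0.59 on the second day and −0.31 on the first, was not called (adjusted p = 0.0566) but passed without pravastatin replicate 2 (adjusted p = 0.0131) or replicate 4 (adjusted p = 0.0184). The pravastatin calls of Ugt2b1, Sult1c2a and Akr7a3 held without each of the 16 arrays in turn, as did the SQ1 calls of Gsta5 and Sult1c2a. The pravastatin means of all genes named in this paragraph for that drug were below 0 on both days. When arrays were scaled to 1 spread, 0 of 8 genes were called with SQ1 and 1 of 8 with pravastatin, where 37 and 294 of all genes were called; with median centring the counts were 6 and 1 of 8, where 4289 and 467 of all genes were called. The pravastatin call of Ugt2b1 held under both settings, at −0.55 (adjusted p = 0.0356) and −0.67 (adjusted p = 0.0297). Without the filter on dim probes 3 of 8 genes were called with pravastatin, where 911 of all genes were called.

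**Figure D3:**
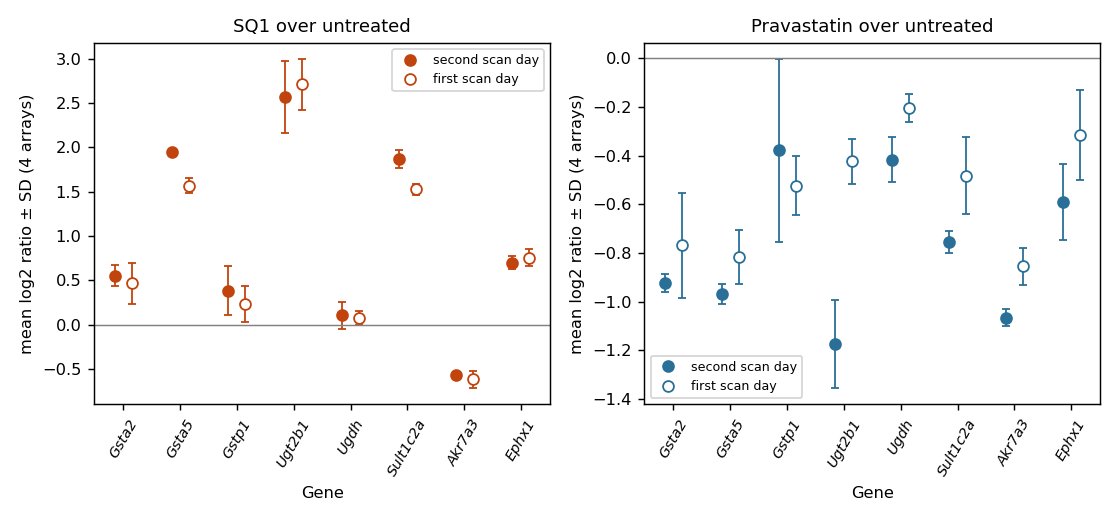
Mean log2 ratio ± SD of 4 arrays for each gene by scan day, SQ1 on the left and pravastatin on the right, with filled points for the second day and open points for the first. Gsta5 and Sult1c2a stand higher on the second day with SQ1 (1.95 and 1.87, against 1.57 and 1.53), and Ugt2b1 stands lower on the second day with pravastatin (−1.18, against −0.42).

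The wider detoxification system was described with 7 lists of 116 other genes, of which 93 were measured. With SQ1 23 of the 93 rose and 52 fell, 24.7% and 55.9%, against 32.6% and 31.2% of all genes tested. With pravastatin 10 rose and 60 fell, 10.8% and 64.5%, against 19.3% and 19.6% of all genes tested. The median of the 93 was −0.20 with SQ1 and −0.19 with pravastatin. A rise with SQ1 together with a fall with pravastatin was called for 14 of the 93 genes, and for 1.81% of all genes tested. SQ1 minus pravastatin was called higher for 29 and lower for 37 of them, against 18.4% and 19.5% of all genes tested. These lists and their direction were known from earlier results, so the counts are no independent evidence.

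**Figure D4:**
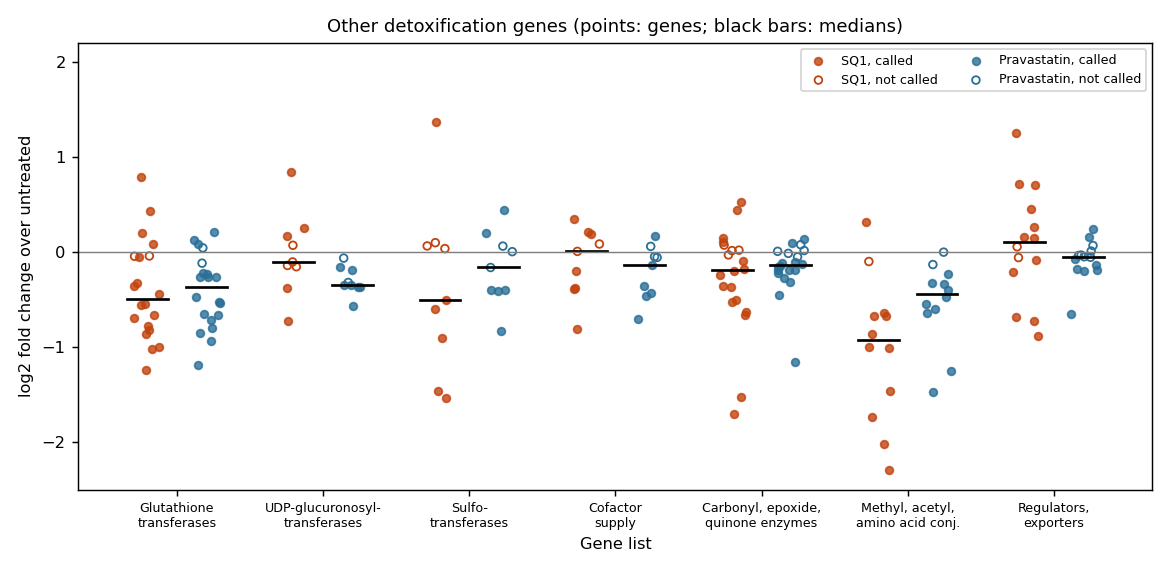
Log2 fold change over untreated cells for 93 other detoxification genes in 7 lists, SQ1 in orange left of pravastatin in blue; filled points were called at an adjusted p under 0.05, open points were not, and black bars are list medians. The median of the methyl, acetyl and amino acid conjugation list is −0.93 with SQ1 and −0.44 with pravastatin, and Sult1c2 is the highest point at 1.36 with SQ1.

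Glutathione transferases outside the 8 genes mostly fell. With SQ1 14 of 20 fell and 4 rose (median −0.49), and with pravastatin 15 fell and 3 rose (median −0.37). With SQ1 that is 70% down and 20% up, against 31.2% and 32.6% of all genes tested. With pravastatin it is 75% down and 15% up, against 19.6% and 19.3%. The 4 that rose with SQ1 were Gsta4, Gstk1, Gsto1 and Gsto2, and the 3 with pravastatin Gstm3, Gstm5 and Gsto2, named after their values were seen. Theta-class Gstt2 fell with SQ1 by 1.24 ± 0.07 and with pravastatin by 0.93 ± 0.07. Gstz1, which also degrades tyrosine, fell with SQ1 by 1.02 ± 0.03 and with pravastatin by 0.66 ± 0.03. Gstm2, of the mu class, fell with SQ1 by 1.00 ± 0.04 and with pravastatin by 0.23 ± 0.04. Hpgds, the sigma-class transferase that makes prostaglandin D2 in immune cells, fell with SQ1 by 0.55 ± 0.13 and with pravastatin by 1.19 ± 0.13. Its SQ1 call was lost on the arrays of the first scan day alone (−0.31). Markers of macrophages, hepatocytes and stellate cells also fell with SQ1, and their part in the Hpgds values was not tested.

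The alpha class split with SQ1 and fell together with pravastatin. Gsta4, which conjugates lipid aldehydes, rose with SQ1 by 0.20 ± 0.05 on 7 of 8 arrays and fell with pravastatin by 0.65 ± 0.05. Gsta1 fell with SQ1 by 0.83 ± 0.04 and with pravastatin by 0.86 ± 0.04, and SQ1 minus pravastatin was 0.03 ± 0.06 (adjusted p = 0.727). Gsta3 fell with SQ1 by 0.66 ± 0.03 and with pravastatin by 0.80 ± 0.03. Alpha-class sequences are close to each other and their names overlap: RefSeq lists Gsta1 as an older name of Gsta2, and Gsta2 as an older name of Gsta5. A probe of Gsta1, Gsta2 or Gsta5 may bind transcripts of the other two, and which of them each probe reads was not tested. The probe of Gsta1 had the opposite sign to those of Gsta2 and Gsta5 on all 8 SQ1 arrays.

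Other UDP-glucuronosyltransferases did not follow Ugt2b1 in size. With SQ1 3 of 9 rose and 2 fell (median −0.11, but 0.01 with the Agilent processed signals and 0.07 with median centring), and with pravastatin 7 fell and none rose (median −0.35). The SQ1 shares are 33.3% and 22.2%, against 32.6% and 31.2% of all genes tested. With pravastatin 77.8% fell, against 19.6% of all genes tested. Ugt1a6, which conjugates planar phenols, rose with SQ1 by 0.84 ± 0.05 and fell with pravastatin by 0.35 ± 0.05, on 6 of 8 arrays. The SD of Ugt1a6 between arrays, which includes the dye difference, was 0.61 with SQ1 and 0.56 with pravastatin. Ugt2b37, of the Ugt2b1 subfamily, rose with SQ1 by 0.17 ± 0.06 on 6 of 8 arrays and fell with pravastatin by 0.37 ± 0.06. The SQ1 call of Ugt2b37 was lost on the second scan day alone, where it stood at 0.0038 (adjusted p = 0.943), with arrays scaled to 1 spread (adjusted p = 0.128) and with slide as a random block (adjusted p = 0.0516). It was also lost without SQ1 replicate 1 (adjusted p = 0.0954), replicate 2 (adjusted p = 0.0842), replicate 5 (adjusted p = 0.0675) or replicate 6 (adjusted p = 0.0775). Ugt2b35, another gene of the subfamily, was at −0.14 ± 0.07 with SQ1 (adjusted p = 0.0801) and fell with pravastatin by 0.37 ± 0.07. The SQ1 value of Ugt2b35 was called in opposite directions on the scan days, at −0.37 on the second (adjusted p = 1.76e-05) and 0.084 on the first (adjusted p = 0.0385). Over both days it was called lower with scan day as a term (adjusted p = 0.000164) and without SQ1 replicate 1, 2, 5 or 6 (adjusted p of 0.0343 to 0.047). Ugt2a3 fell with SQ1 by 0.73 ± 0.06 and with pravastatin by 0.56 ± 0.06, and Ugt2a1 fell with SQ1 by 0.38 ± 0.05 and with pravastatin by 0.35 ± 0.05. Probes of the Ugt2b family can bind paralogs, and Ugt2b17 is an older name of Ugt2b1 in RefSeq.

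Most sulfotransferases other than Sult1c2a fell or were not called. With SQ1 1 of 9 rose, which was Sult1c2, and 5 fell (median −0.50), and with pravastatin 2 rose and 4 fell (median −0.16). With SQ1 that is 11.1% up and 55.6% down, against 32.6% and 31.2% of all genes tested. With pravastatin it is 22.2% up and 44.4% down, against 19.3% and 19.6%. Sult1c2, the nearest paralog by name of Sult1c2a, rose with SQ1 by 1.36 ± 0.08 and stood at −0.16 ± 0.08 with pravastatin (adjusted p = 0.140). Probes of Sult1c2 and Sult1c2a may bind transcripts of each other, which was not tested, so their rises with SQ1 may not be separate. Sult1c3, of the same family, stood at 0.03 ± 0.08 with SQ1 (adjusted p = 0.743) and rose with pravastatin by 0.44 ± 0.08. The SQ1 value of Sult1c3 was 0.31 on the first scan day and −0.24 on the second, both called within their day. Sult1a1, a phenol sulfotransferase, fell with SQ1 by 1.54 ± 0.06 and with pravastatin by 0.40 ± 0.06, although only 4 of 8 pravastatin arrays were below 0. Its SD between arrays, which includes the dye difference, was 0.61 with SQ1 and 0.70 with pravastatin. The bile acid and steroid sulfotransferases Sult2a6 and Sult2a2 fell with SQ1 by 1.47 ± 0.10 and 0.60 ± 0.05, and with pravastatin by 0.83 ± 0.10 and 0.41 ± 0.05.

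Genes that supply the cofactors of conjugation moved both ways with SQ1, where 3 of 9 rose and 4 fell (median 0.01; with median centring 5 rose and 3 fell), and mostly down with pravastatin, where 1 rose and 5 fell (median −0.14). With SQ1 that is 33.3% and 44.4%, against 32.6% and 31.2% of all genes tested. With pravastatin it is 11.1% and 55.6%, against 19.3% and 19.6%. Ugp2, which makes the UDP-glucose that Ugdh oxidises, fell with SQ1 by 0.40 ± 0.04 and with pravastatin by 0.46 ± 0.04. Gclc, the catalytic subunit of the first enzyme of glutathione synthesis, fell with SQ1 by 0.20 ± 0.04 and with pravastatin by 0.71 ± 0.04, and its SQ1 call was lost with median centring and with arrays scaled to 1 spread. Gss, glutathione synthetase, fell with SQ1 by 0.38 ± 0.03 and stood at −0.05 ± 0.03 with pravastatin (adjusted p = 0.130), where it was called without background subtraction and without pravastatin replicate 4. Gsr, which regenerates reduced glutathione, rose with SQ1 by 0.21 ± 0.07 and fell with pravastatin by 0.43 ± 0.07, and its SQ1 call was lost on the first scan day alone and with arrays scaled to 1 spread. Mat1a, which makes the methyl donor in liver, fell with SQ1 by 0.81 ± 0.05 and with pravastatin by 0.36 ± 0.05.

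Carbonyl, epoxide, aldehyde and quinone enzymes other than Akr7a3 and Ephx1 mostly fell, 12 of 20 with SQ1 against 4 that rose (median −0.19) and 13 with pravastatin against 2 that rose (median −0.14). With SQ1 that is 60% down and 20% up, against 31.2% and 32.6% of all genes tested. With pravastatin it is 65% down and 10% up, against 19.6% and 19.3%. Akr7a2, the paralog of Akr7a3, fell with SQ1 by 0.63 ± 0.04 and with pravastatin by 0.32 ± 0.04, so both genes of the family fell with both drugs. Akr1c1 fell with SQ1 by 1.70 ± 0.11 and stood at −0.02 ± 0.11 with pravastatin (adjusted p = 0.931), where it was called lower on the second scan day alone (−0.18). Akr1d1, the steroid reductase of bile acid synthesis, fell with SQ1 by 1.52 ± 0.18 and with pravastatin by 1.15 ± 0.18. Nqo2, a quinone reductase, fell with SQ1 by 0.66 ± 0.04 and with pravastatin by 0.22 ± 0.04, and Aldh2, mitochondrial aldehyde dehydrogenase, fell with SQ1 by 0.52 ± 0.04 and with pravastatin by 0.46 ± 0.04.

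Genes of methyl, acetyl and amino acid conjugation mostly fell with both drugs, with 10 of 12 genes down and 1 up with SQ1 (median −0.93), and 10 down and 0 up with pravastatin (median −0.44). With SQ1 that is 83.3% down and 8.33% up, against 31.2% and 32.6% of all genes tested. With pravastatin it is 83.3% down and 0% up, against 19.6% and 19.3%. The acyl-CoA synthetases Acsm5 and Acsm3, which activate acids for glycine conjugation, fell with both drugs, standing at −2.29 ± 0.11 and −2.02 ± 0.10 with SQ1, and at −1.48 ± 0.11 and −1.26 ± 0.10 with pravastatin. Baat, which joins bile acids to taurine or glycine, fell with SQ1 by 1.73 ± 0.07 and with pravastatin by 0.64 ± 0.07. The single gene of the list that rose with SQ1 was Nat8, an acetyltransferase that finishes mercapturic acids, at 0.32 ± 0.05, and it fell with pravastatin by 0.60 ± 0.05.

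Regulators and exporters went separate ways with SQ1, where 7 of 14 rose and 5 fell (median 0.10), while with pravastatin 2 rose and 6 fell (median −0.05). With SQ1 that is 50% and 35.7%, against 32.6% and 31.2% of all genes tested. With pravastatin it is 14.3% and 42.9%, against 19.3% and 19.6%. All 4 conjugate exporters rose with SQ1: Abcc2, the canalicular carrier of glucuronides and glutathione conjugates, by 1.25 ± 0.07, Abcc3 by 0.26 ± 0.03, Abcc4 by 0.71 ± 0.03 and Abcg2 by 0.71 ± 0.03. With pravastatin Abcc2 stood at −0.04 ± 0.07 (adjusted p = 0.725), Abcc3 fell by 0.14 ± 0.03, and Abcc4 and Abcg2 rose by 0.15 ± 0.03 and 0.24 ± 0.03. Transcripts of the receptors PXR (Nr1i2) and CAR (Nr1i3) fell with SQ1 by 0.72 ± 0.04 and 0.89 ± 0.15, and with pravastatin by 0.20 ± 0.04 and 0.66 ± 0.15, where the fall of Nr1i3 was not called on the first scan day alone (−0.47, adjusted p = 0.121). Nfe2l2, which encodes NRF2, fell with SQ1 by 0.69 ± 0.03 and with pravastatin by 0.18 ± 0.03, its pravastatin call being lost with median centring. Keap1, the inhibitor of NRF2, stood at 0.05 ± 0.04 with SQ1 (adjusted p = 0.222) and −0.03 ± 0.04 with pravastatin (adjusted p = 0.529). Ahr rose with SQ1 by 0.45 ± 0.09 and stood at 0.07 ± 0.09 with pravastatin (adjusted p = 0.594). Arrays measure the transcripts of these regulators and not their activity.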

How the data were processed

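RNA of treated and untreated hepatocytes was compared on 16 two-colour arrays. Per the file headers, the authors used Agilent Feature Extraction 10.7.1.1 and an array design on build rn4. The deposited scanner files give median spot and background intensity per colour, and processed-signal intensity after background subtraction and dye normalisation. A value table holds the authors' log2 ratios. Its scale and treated-over-untreated direction were found by setting each column against the scanner files, column medians were −0.061 to 0.104, and its centring is not stated. It served only as an alternative, because each column matches the scanner file of the other drug. Which of these sources has the right drug names cannot be settled here.

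The work was done with limma 3.58.1, statmod 1.5.0 and version 1.17.8 of data.table in R 4.3.3. Background was removed by normexp (offset 50). Within-array loess gave weight 0 to control spots (1377 of 44254) and to outlier spots. Outlier spots, at most 663 in an array, were then left out and spots of a probe averaged. Of 30367 probes, 17998 were named through RefSeq GRCr8 and 12369 kept their identifiers. A probe was kept if at least 6 of its 32 channel measurements were well above background, and the brightest probe stood for a gene, which left 20789 genes, 11940 with a symbol. Intensities are channel values after loess and Aquantile normalisation. Their precision is limited by the number of arrays.

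A linear model with a term per drug and a dye term was fitted over all 16 arrays, and a second with scan day within each drug. Tests were two-sided with moderated variances, with p adjusted over all genes by Benjamini-Hochberg and a threshold of 0.05, and the fit was tested on simulated data. The spread between arrays may be partly technical, since no label names the animals. Arrays that share a number had residual correlations of 0.143 to 0.628, all over 0.1, so replicate number was also fitted as a block. Same-numbered arrays also share a scan day, which the fit behind those residuals left out. The correlations therefore cannot show that untreated RNA was shared. Alternatives included other background corrections, centring, scaling, filters, slide and scan day, and leaving out each array.

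The 8 genes, the lists and the markers were chosen with earlier results of these data known. From each list and drug, up to 3 called genes with the largest change and the same sign on 8 of 8 arrays were named. Also named were any regulator or exporter and, for each of the 8, the 3 nearest genes with a symbol. A neighbour of Ugdh is not reported here. Probe sequences were not used here, so binding of paralogs could not be examined.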

Additional observations from a re-analysis of the deposited data

Results flagged for a closer look

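The effect of a drug differed between the scan days in 6 cases among the 8 genes, 2 with SQ1, against 14.7% of all genes, and 4 with pravastatin, against 4.98%, by the interaction term of the limma fit (values are the log2 effect on the second day minus that on the first). With SQ1 the difference was 0.38 for Gsta5 (adjusted p = 0.000176) and 0.34 for Sult1c2a (adjusted p = 0.00107). With pravastatin it was −0.75 for Ugt2b1 (adjusted p = 0.00207), −0.21 for Ugdh (adjusted p = 0.0443), −0.27 for Sult1c2a (adjusted p = 0.0128) and −0.21 for Akr7a3 (adjusted p = 0.0111). The Ugdh call was lost with the random replicate block (adjusted p = 0.0575), without background subtraction (adjusted p = 0.0517), with the signals as Agilent processed them (adjusted p = 0.0919) and without any 1 of 11 of the 16 arrays. With arrays scaled to 1 spread 0 of the 8 genes were called with SQ1 and 1 with pravastatin, where 37 and 294 of all genes were called. With median centring 6 and 1 of the 8 were called, where 4289 and 467 of all genes were. The 1 pravastatin call under both settings was that of Ugt2b1. Without the filter on dim probes 3 of the 8 were called with pravastatin, where 911 of all genes were. In each of the 6 cases the effect lay on the same side of 0 on both days. The differences use the log2 ratios on which the genes were chosen, so the counts are a description. The arrays of a drug on a day share a slide, so these p-values do not measure the spread between slides or days. No array of the 8 genes stood apart from its group by Dixon's test.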

How the results depend on the processing

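Under 28 settings of the scanner files, which include leaving out each array, none of the 16 mean ratios of the 8 genes changed sign; SQ1 means spanned 2.02 to 2.79 for Ugt2b1, 1.33 to 1.95 for Gsta5 and 0.07 to 0.22 for Ugdh, and pravastatin means −1.18 to −0.42 for Ugt2b1. Counts over all genes moved by over 1.5 times in few settings, and the cause was not tested. With arrays scaled to 1 spread, SQ1 minus pravastatin had 4319 calls (7867 in the fit as reported), and the scan-day differences 37 with SQ1 (3057) and 294 with pravastatin (1035), while Sult1c2a and Akr7a3 turned to 0.019 and 0.45 for the pravastatin scan-day difference. Median centring gave 467 pravastatin scan-day calls, and 4289 with SQ1, within 1.5 times of the count as reported. The first scan day alone, with fewer arrays, gave 4015 calls with pravastatin (8086) and 4846 for SQ1 minus pravastatin. Without 1 array, calls ranged over 12554 to 13281 with SQ1 (13254), 7016 to 8221 with pravastatin, 7175 to 7969 for the difference, 1960 to 3302 for the SQ1 scan-day difference and 554 to 1039 for that of pravastatin, and detoxification genes called over 72 to 76 (75) and 64 to 69 (70). The low scan-day counts came without SQ1 replicate 3 (1960) and without pravastatin replicate 3 (554), replicate 6 (679) or replicate 7 (653). The replicate number as a block (correlation 0.393 as a random block) gave 13086 calls with SQ1, 8016 with pravastatin and 9895 for the difference, or 9873 as a fixed block; among the 8 genes' calls it ended the scan-day call of Ugdh alone. Of 8 pairs of same-numbered arrays, 5 correlated best with their own number. Slide as a random block gave 11438, 5889 and 5690 calls.

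With the deposited value table read by its own column names, the drugs exchange. Calls with pravastatin became 13659, and scan-day calls 839 with SQ1 and 3413 with pravastatin. The SQ1 and pravastatin means became −0.84 and 0.54 for Gsta2, −0.90 and 1.79 for Gsta5, −0.46 and 0.35 for Gstp1, −0.82 and 2.66 for Ugt2b1, −0.33 and 0.12 for Ugdh, −0.64 and 1.76 for Sult1c2a, and −0.46 and 0.72 for Ephx1. They became −0.34 and 0.85 for Ugt1a6, −0.37 and 0.17 for Ugt2b37, −0.67 and 0.21 for Gsta4, −0.68 and 0.37 for Nat8, −0.44 and 0.24 for Gsr, −0.13 and 0.23 for Ppara, and −0.15 and 0.32 for Abcc3. The SQ1 mean became −0.21 for Sult1c2, 0.047 for Akr1c1, −0.045 for Abcc2 and −0.10 for Arnt. Scan-day differences became −0.13 for Gsta5 and −0.28 for Sult1c2a with SQ1, and 0.073 for Ugdh, 0.40 for Sult1c2a and 0.080 for Akr7a3 with pravastatin.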
